A study of Mus musculus with 82 samples.

Results

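Bile salts, phospholipids and many drugs leave the hepatocyte through a small set of membrane transporters. The 6 genes described here were chosen as the probes whose annotated symbol is Abcb11, Abcb4, Abcc2, Slc10a1, Abcb1a or Abcg2. All 6 were found, each with 1 probe, among the 21915 features of the arrays, of which 3439 had a gene name. None of the 6 probes held a missing value, a value of exactly 0 or a value at the bound of the scale on any of the 82 arrays.

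Bile is formed when hepatocytes take up bile salts from portal blood and pump them, with phospholipid and organic anions, into the bile canaliculus. Slc10a1 (NTCP) is the sodium-dependent uptake carrier of the blood-facing membrane. Abcb11 (BSEP) is the canalicular bile salt export pump, Abcb4 (MDR2) flops phosphatidylcholine into bile, and Abcc2 (MRP2) exports bilirubin glucuronides and other conjugated anions. Abcb1a is a mouse P-glycoprotein that expels many drugs, and Abcg2 (BCRP) exports sulphated conjugates, urate and drugs. The bile acid receptor Nr1h4 (FXR) is known to switch on Abcb11 through paired copies of a short hexamer in its promoter.

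Livers came from mice of the BXD recombinant inbred strains, whose genomes are mosaics of C57BL/6J (B6) and DBA/2J (D2), and from the parental strains themselves. The labels gave 40 arrays of BXD females and 32 of BXD males from 17 strains, and 2 of B6 males, all set against an RNA mix of B6 embryos of day 17.5. A further 6 arrays set B6 liver directly against D2 liver, 3 labelled female and 3 labelled male, and 2 arrays, 1 of each sex label, set RNA labelled as enriched B6 against enriched D2. Mice were unfasted and 10 to 20 weeks old, and no treatment is named. The design text speaks of 18 BXD strains and 3 males each, while the array labels hold 17 strains and both sexes. The mix is labelled as embryo and not as fetal liver, so these arrays compare adult liver with embryos.

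Values are log2 ratios between the RNAs that shared an array. They rest on reading the deposited log ratio as log10 and as channel 2 over channel 1, which is a likely reading and is not stated in the sources used here. The direction was read from hepatocyte markers. Under this reading, the median of 7 measured markers was higher in liver than in the embryo mix on 74 of 74 arrays. The lowest array's median was 2.55. Before turning, the 32 pairs of a forward and a dye-swapped array had correlations of -0.90 to -0.56 across features. The SD over features within an array against the mix ran from 0.69 to 1.12, and the number of arrays limits the precision of each value. Both orientations were available for females and males of 13 strains, while BXD8, BXD9, BXD14 and BXD27 were hybridised in the forward orientation alone. Nothing in the labels says how the mice of a strain were split over arrays, so p-values measure the spread between strains, sexes or arrays as given. In bulk liver, fewer cells of a type and less RNA per cell cannot be told apart.

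Promoter windows of 3 genes are shown as examples that hold short motifs of nuclear receptors (Abcb11 and Abcc2) or of STAT factors (Slc10a1). Windows of Abcg2 and the second window of Slc10a1, not shown, hold the hexamer AGGTCA too. Each runs 5′ to 3′ from RefSeq, from 250 bases before to 50 bases after an annotated gene start, in the build named. Capitals mark an inverted repeat in Abcb11, the hexamer AGGTCA in Abcc2 and a STAT motif in Slc10a1.
Abcb11 (GRCm38.p6, chr2:69342567-69342866, minus strand): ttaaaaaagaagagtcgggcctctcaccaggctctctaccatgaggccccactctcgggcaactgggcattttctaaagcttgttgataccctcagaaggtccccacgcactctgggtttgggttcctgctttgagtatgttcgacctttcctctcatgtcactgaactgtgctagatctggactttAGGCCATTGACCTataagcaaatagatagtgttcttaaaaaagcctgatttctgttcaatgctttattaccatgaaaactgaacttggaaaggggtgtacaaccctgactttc
Abcc2 (GRCm38.p6, chr19:43782058-43782357, plus strand): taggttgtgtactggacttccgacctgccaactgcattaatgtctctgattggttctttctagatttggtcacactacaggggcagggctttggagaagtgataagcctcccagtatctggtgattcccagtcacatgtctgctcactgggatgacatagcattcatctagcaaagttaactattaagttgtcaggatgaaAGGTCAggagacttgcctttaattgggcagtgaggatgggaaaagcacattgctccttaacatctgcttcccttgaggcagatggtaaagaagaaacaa
Slc10a1 (GRCm38.p6, chr12:80968656-80968955, minus strand): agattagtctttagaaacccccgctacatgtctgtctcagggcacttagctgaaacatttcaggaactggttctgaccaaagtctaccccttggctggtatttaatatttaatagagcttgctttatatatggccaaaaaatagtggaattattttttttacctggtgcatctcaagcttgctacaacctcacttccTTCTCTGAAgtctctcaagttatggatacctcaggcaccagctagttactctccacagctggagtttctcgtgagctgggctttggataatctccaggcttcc

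The Abcb11 window held AGGCCATTGACCT, an inverted repeat of the bile acid receptor type with a single base between its arms, whose first base lies at -63 from the start. That pattern (any base allowed at the fourth position and between the arms) was present in 12 of 32851 mouse promoter windows of the same length (0.0365%), searched on both strands. Its second arm is also a reverse match of AGGTCA, the hexamer found in forward sense at -49 from the Abcc2 start, and 16.3% of the windows held AGGTCA. The first of the 2 Slc10a1 windows held TTCTCTGAA, a match to the STAT motif TTCNNNGAA found in 8.3% of windows, at -53 from the start. In the Abcb1a window none of the 6 motifs searched was found, which also included TATAAA (13.6%), GGGCGG (35.7%) and the palindromic HNF1 motif (0.00913%), and the Abcb4 window held GGGCGG. No STAT motif was in the 3 Abcg2 windows, which held some of the other short motifs. These matches describe letters in 1 window per start and say nothing of binding.

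The biliary pumps were far higher in liver than in the embryo mix, and the drug exporters were nearer to it. Over the 13 strains with both orientations, 4 of the 6 genes were called higher in liver, where a call needs a limma adjusted p under 0.05 and a log2 ratio of at least 1. Of all features 13.9% were called in either direction, 4.69% higher and 9.17% lower, and the median over all features was 0.07. Hepatocyte markers were called higher for 6 of 7 measured genes. The direction of the ratio was itself read from these markers, so their sign is not separate support.

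Abcb11 stood highest over the mix. Among females it ran from 2.60 in BXD28 through a median of 3.01 to 3.55 in BXD11, and among males from 2.52 in BXD18 through 3.19 to 3.56 in BXD15. Every strain and sex was thus above the mix, and the 13 strain means averaged 3.15 ± 0.27 (SD), an 8.87-fold difference (limma adjusted p = 6.08e-16). Its swapped arrays read higher than the forward ones in 28 of 32 pairs, by 0.25 on average.

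Abcb4, the phospholipid floppase, ran in females from 1.95 in BXD28 through 2.87 to 3.34 in BXD31, and in males from 2.18 in BXD8 through 2.83 to 3.19 in BXD16. Its strain means averaged 2.77 ± 0.26 (SD, n = 13), or 6.84-fold over the mix (limma adjusted p = 2.14e-15). Swapped arrays of Abcb4 read higher than forward ones in 28 of 32 pairs, by 0.34 on average. The BXD8 male, the lowest, had a forward array alone, so its value is not balanced for orientation. Abcc2, the conjugate pump, spread more widely: females ran from 1.0025 in BXD28 through 2.15 to 2.63 in BXD31, and males from 1.19 in BXD27 through 2.20 to 2.66 in BXD16. The average was 2.10 ± 0.28 (SD, n = 13), or 4.30-fold (limma adjusted p = 1.65e-13), and no strain or sex lay below 0 for either pump.

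The uptake carrier Slc10a1 sat at the size threshold. Females ran from -0.06 in BXD8 through 0.98 to 1.73 in BXD6 and males from 0.14 in BXD9 through 0.88 to 1.44 in BXD11. The average was 1.0004 ± 0.26 (SD, n = 13), or 2.0006-fold (limma adjusted p = 9.47e-10), barely past the size threshold. With 1 strain left out at a time the call was lost in 7 of 13 cases, with averages between 0.97 and 1.04. This probe was also the least repeatable of the 6. Across 32 forward and swapped pairs the swapped value minus the forward value had an SD of 1.08 and ran from -3.98 to 2.30, against SDs of 0.18 to 0.50 for the other 5 genes. In the BXD15 male the swapped array read -1.37 and the forward array 2.62.

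Abcg2 was above the mix by less, with strain means of 0.65 ± 0.17 (SD, n = 13; limma adjusted p = 1.06e-09), 1.57-fold and under the size threshold. In males alone it passed that threshold, at 1.02 (limma adjusted p = 1.03e-09; 15.9% of features were called in that fit, 6.27% higher and 9.59% lower), and in females alone it stood at 0.27. Its forward arrays read higher than the swapped ones in 29 of 32 pairs, by 0.28 on average. Abcb1a averaged 0.03 ± 0.34 (SD, n = 13; limma adjusted p = 0.735), and that average covers opposite signs in the sexes. Females were above the mix in 15 of 17 strains and males below it in 14 of 17.

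**Figure D1:**
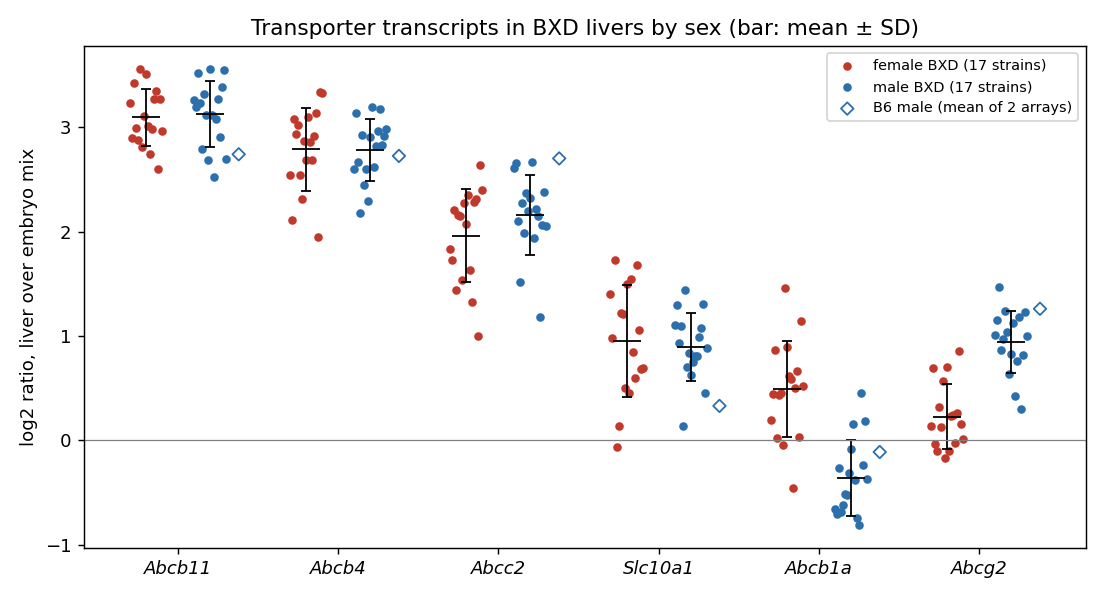
Log2 ratio of liver over the embryo mix (vertical axis) for the 6 transporters, with 1 point per BXD strain, females left of males, bars at the mean ± SD of 17 strains, and a diamond for the B6 male pair of arrays. Abcb11, Abcb4 and Abcc2 lie above 0 in every strain and sex, females stand above males for Abcb1a (means 0.49 and -0.36), and females stand below males for Abcg2 (means 0.23 and 0.94).

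Genes of bile acid synthesis were high in liver too, as were some regulators of these transporters. All 5 measured genes of bile acid synthesis, of 15 listed, were called higher, led by Baat, which joins bile acids to taurine and glycine (4.45), the bile acid CoA ligase Slc27a5 (3.57), the oxysterol hydroxylase Cyp7b1 (3.29) and the sterol 12-hydroxylase Cyp8b1 (1.24). Of 11 measured regulators, of 26 listed, 5 were called higher and 0 lower: the sterol receptor Nr1h3 at 2.33, the bile acid receptor Nr1h4 at 1.90, the xenobiotic receptor Nr1i3 (CAR) at 1.81, Cebpb at 1.46 and the fatty acid receptor Ppara at 1.38. The median of the regulators was 0.68, and that of the bile acid genes 3.29.

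Of 8 other bile and drug transporters measured, of 32 listed, the sodium-dependent bile acid carrier Slc10a2 was called higher (1.29) and the multidrug exporter Abcc1 lower (-1.12), and the list's median was -0.02. Among 6 measured genes of the canalicular scaffold, of 17 listed, the PDZ adaptor Slc9a3r1 was called higher (1.06), the tight junction protein Tjp1 was called lower (-1.52), and the median was -0.53.

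The sexes differed for both drug exporters, in opposite directions. With strain as a block, 2 of the 6 genes were called between females and males over 34 values, while 33.7% of all features were, 16.5% higher and 17.2% lower in females. A count of 2 of 6 is near that share, so the count itself is not a result about the transporters.

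Abcb1a ran in females from -0.46 in BXD19 through a median of 0.51 to 1.46 in BXD14, and in males from -0.81 in BXD21 through -0.38 to 0.46 in BXD27. Females were higher in 17 of 17 strains, although the ranges overlap: 9 females lay above the highest male. The difference was 0.85 (SE 0.09, limma adjusted p = 1.38e-05), a 1.80-fold higher level in females, and by strain it ran from 0.21 in BXD27 to 1.77 in BXD14.

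Abcg2 ran in females from -0.17 in BXD14 through 0.16 to 0.86 in BXD28, and in males from 0.30 in BXD27 through 1.0005 to 1.47 in BXD6. Females were lower in 16 of 17 strains, BXD28 being the exception at 0.04, and 12 females lay below the lowest male. The difference was -0.72 (SE 0.11, limma adjusted p = 1.01e-04), 1.64-fold lower in females, with the largest gap in BXD6 at -1.50.

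**Figure D2:**
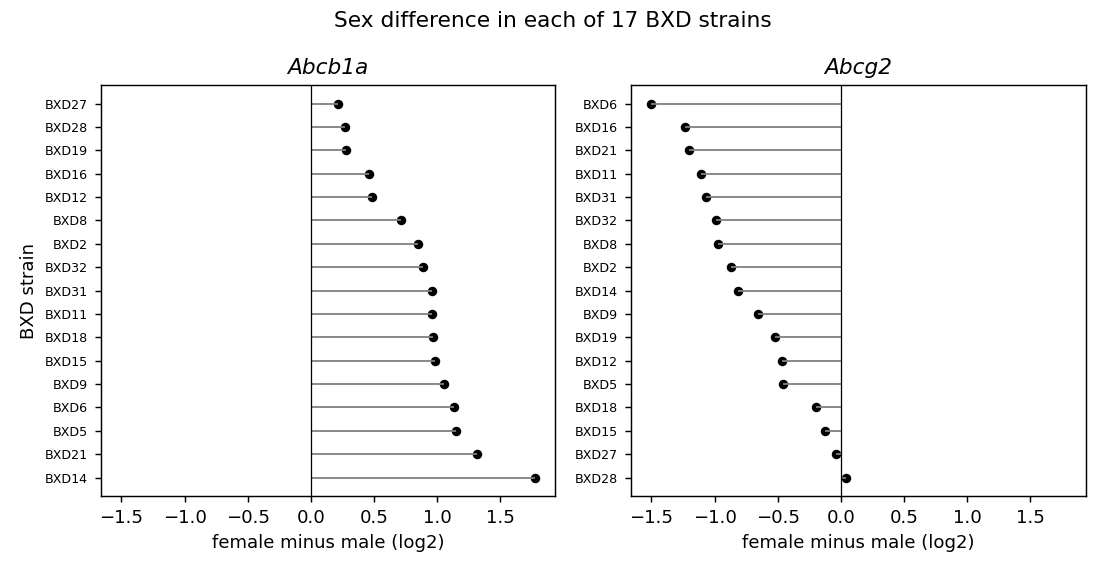
Female minus male log2 ratio (horizontal axis) in each of 17 BXD strains (vertical axis, sorted), for Abcb1a and Abcg2, with 1 point per strain. Abcb1a lies right of 0 in 17 strains, from 0.21 to 1.77, and Abcg2 lies left of 0 in 16 strains, with BXD28 at 0.04.

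The biliary pumps and the uptake carrier were not called between the sexes. Female minus male was -0.04 for Abcb11 (SE 0.07), 0.01 for Abcb4 (SE 0.11), -0.20 for Abcc2 (SE 0.13) and 0.05 for Slc10a1 (SE 0.12), with limma adjusted p-values from 0.261 to 0.963. Individual strains lay on either side of 0. Abcb4 ran from -1.02 in BXD5 to 0.75 in BXD8, and Abcc2 from -1.06 in BXD28 to 1.13 in BXD27. A p that misses the threshold does not show that the sexes were alike.

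Sex was partly aligned with the order of deposit, since several runs of consecutively deposited arrays held a single sex. With the run as a term and no strain term, over 40 values, Abcb1a stood at 1.08 (limma adjusted p = 1.25e-05) and Abcg2 at -0.58 (limma adjusted p = 5.63e-05). Replicate numbers of a strain and sex counted there as separate values. Within the 5 runs that held both sexes, Abcb1a was higher in females in each, by 0.21 to 1.30. Abcg2 was lower in each, by -0.80 to -0.04. The smallest of these differences came from a run of 1 female and 1 male, both BXD27 on forward arrays alone. Another run held 1 female and 5 males. These values come from the same arrays as the test with strain as a block. Abcb11 was also called in the fit with the run term, at 0.28 higher in females (limma adjusted p = 0.0238), where 31.2% of features were called. Inside the runs it was higher by 0.09 to 0.49. On the same 40 values, with the run term dropped and again no strain term, Abcb11 stood at -0.03 (limma adjusted p = 0.871). The sexes of a run were partly of different strains, and the cause of the change was not tested.

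Some markers of other cells differed with sex. Hepatocyte markers were called for 0 of 7 genes, with list means by strain of 2.91 to 3.45 in females and 3.04 to 3.41 in males, and bile duct markers for 0 of 2. The 4 stellate cell and fibroblast markers had a list mean higher in females in 17 of 17 strains (-0.74 to -0.34 in females and -0.80 to -0.49 in males), and the 5 endothelial markers in 14 of 17 (-0.70 to -0.03 in females and -0.69 to -0.25 in males). The 4 macrophage markers were higher in females in 12 of 17 strains, the 4 lymphocyte markers in 13, the 5 red cell markers in 4, the 2 bile duct markers in 2 and the 7 markers of neighbouring tissues in 11. Single genes went both ways within a list. Of the endothelial markers 2 were called higher and 2 lower in females, with the junction protein Cldn5 at 0.61 and Tie1 at -0.26, and the red cell marker Rhag was lower at -0.66, the only one called of 5 and close in size to the Abcg2 difference (these 3 genes were named after their values were seen). Macrophage, lymphocyte and stellate lists each had 2 genes called higher, and the neighbouring tissues had 1 higher and 1 lower. Beside the share of all features, these counts by themselves are not a result about the cells. The part of these cells in the Abcb1a and Abcg2 differences was not tested.

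Bile acid genes were called between the sexes in 4 of 5 cases, 2 in each direction, beside 33.7% of all features. Cyp7b1 was lower in females by -2.53 and in 17 of 17 strains, Cyp8b1 lower by -0.53, and Baat and Slc27a5 higher by 0.30 and 0.17, while Cyp46a1, at 0.07, was not called (limma adjusted p = 0.709). Nr1h4 was higher in females by 0.34, while the liver factor Onecut1 (-0.36) and the vitamin D receptor Vdr (-0.30) were lower, 3 of 11 regulators in all. Among other transporters the organic anion carrier Slc22a6 was lower in females (-0.57) and the nucleoside carrier Slc28a2 higher (0.32), 2 of 8. In the scaffold list Ezr, a linker of membrane and actin, was lower (-0.40) and its relative Msn higher (0.21), 2 of 6. The counts of these last 3 lists are below the share of all features.

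No member was called between strains. A moderated F test on 26 values, 1 per strain and sex in 13 strains with a sex term, called 0 of the 6 genes, against 1.2% of all features (262 features, and 3016 at an unadjusted p under 0.05). Abcb1a had the widest strain means relative to the residual: they ran from -0.60 in BXD19 to 0.67 in BXD31, a 2.41-fold range, with an SD of 0.34 against a residual SD of 0.24 (F = 4.57, limma adjusted p = 0.121). Abcb11 followed, from 2.63 in BXD18 to 3.54 in BXD15 (F = 4.03, limma adjusted p = 0.166).

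For the other 4 genes F lay between 0.55 and 1.64, with limma adjusted p-values of 0.526 to 0.917. Abcc2 ran from 1.53 in BXD28 to 2.51 in BXD31, Abcb4 from 2.39 in BXD28 to 3.16 in BXD32, Slc10a1 from 0.56 in BXD31 to 1.33 in BXD11 and Abcg2 from 0.33 in BXD18 to 0.92 in BXD5. For each of the 6 genes, no strain differed from its neighbour in the order by more than 2 standard errors of a difference, and for Abcb1a 2 of 12 neighbour gaps exceeded 1 standard error. The strain test reached a call for 1 gene in 2 alternatives. With all 17 strains Abcb1a passed (F = 3.42, limma adjusted p = 0.0306, where its other settings gave up to 0.431). In that fit 25.5% of all features were called, its F was below the 4.57 of the 13 strains, and the 4 added strains were hybridised in the forward orientation alone, so strain and orientation are mixed there. Without BXD28 Abcb11 passed (limma adjusted p = 0.0410, where its other settings gave up to 0.387). Of the bile acid genes, Cyp46a1, a cholesterol hydroxylase, was called between strains (F = 10.96, limma adjusted p = 0.00713), and none of the listed regulators, other transporters or scaffold genes was.

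The BXD28 female lay at an end of the female range for several members. It had the lowest female value of Abcb11 (2.60), Abcb4 (1.95) and Abcc2 (1.0025) and the highest of Abcg2 (0.86). The BXD28 male read 3.39 for Abcb11 and 0.81 for Abcg2, within the range of the other males. Arrays of this female were deposited consecutively with those of the BXD2, BXD5, BXD12, BXD18 and BXD19 females. For Abcc2 those females also lay below the female median of 2.15, from 1.33 in BXD19 to 1.83 in BXD2. Males of those strains read 1.94 to 2.66. For Abcb11 they lay on both sides of the female median, from 2.74 in BXD18 to 3.23 in BXD2. Each of the 2 sexes of BXD28 had 1 forward and 1 swapped array. Whether the mouse RNA, the arrays or the order of deposit set this female apart was not tested.

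Strain values of females and males were set side by side to see whether they repeat in other animals. Over 13 strains Abcb1a had r = 0.63 (permutation p = 0.0215, adjusted over the 6 genes 0.113) and rho = 0.69 (adjusted p = 0.0664). Abcb11 had r = 0.58 (permutation p = 0.0378, adjusted 0.113) and rho = 0.62 (adjusted p = 0.0854). Without the 2 strains farthest from the median the values were r = 0.50 and 0.53. The other 4 genes ran from r = -0.38 for Abcg2 to 0.20 for Abcb4, and 0 of 6 passed 0.05 after adjustment of r. With all 17 strains Abcb1a had rho = 0.68 (adjusted permutation p = 0.0196) and r = 0.53 (adjusted p = 0.169).

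**Figure D3:**
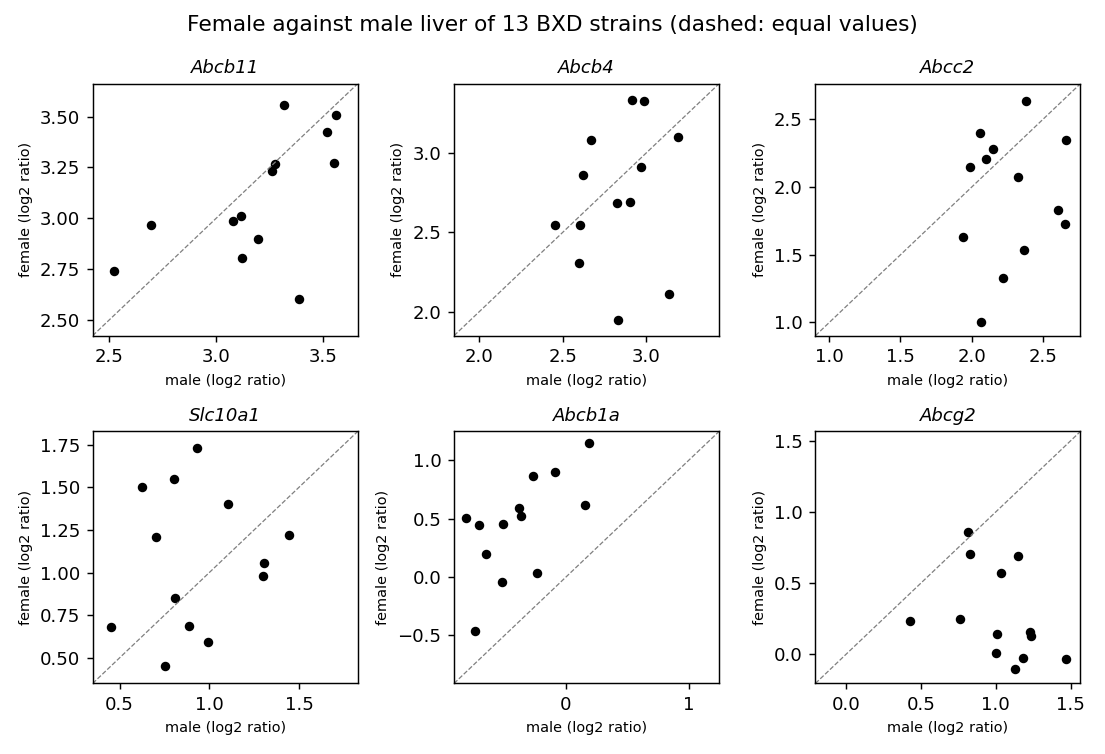
Female (vertical) against male (horizontal) log2 ratio of liver over the embryo mix in 13 BXD strains, 1 panel per gene, with a dashed line of equal values. Points of Abcb1a lie above the line and those of Abcg2 mostly below it, and the order of strains is shared most for Abcb1a (r = 0.63) and Abcb11 (r = 0.58).

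Members were also compared with each other across strains. Over the means of both sexes in 17 strains, 15 pairs gave 0 correlations that passed adjustment, the largest being 0.51 for Abcb4 with Abcb1a (rho = 0.50), 0.50 for Abcb4 with Abcc2 (rho = 0.48) and 0.47 for Abcc2 with Abcb1a (rho = 0.48), each with an adjusted permutation p of 0.290 for r. Without the 2 strains farthest from the median they were 0.47, 0.67 and 0.38. The 17 strains include those hybridised in the forward orientation alone, so strain and orientation are mixed there. In the 13 strains with both orientations r was 0.58, 0.70 and 0.61. The largest there in absolute size was -0.72 for Abcb4 with Slc10a1 (rho = -0.69, adjusted permutation p = 0.0544 for r). That pair had r = -0.30 over 17 strains. No pair passed adjustment in the 13 strains. Abcb4 and Abcb1a lie on chromosome 5 with Abcb1b between them.

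In females alone 4 pairs passed by r. Abcc2 went with Abcb1a (r = 0.76, adjusted permutation p = 0.00345; rho = 0.73, adjusted p = 0.00968) and with Abcb4 (r = 0.75, adjusted p = 0.00345; rho = 0.80, adjusted p = 0.0036). Abcb11 went with Abcc2 (r = 0.61, adjusted permutation p = 0.0363) and Abcb4 against Abcg2 (r = -0.72, adjusted p = 0.006), but by rho (0.49 and -0.50) neither of these passed (adjusted p = 0.118 each). Without the 2 strains farthest from the median these were 0.68, 0.66, 0.67 and -0.46, and the last no longer passed (adjusted p = 0.163). In the 13 strains with both orientations Abcb11 with Abcc2 no longer passed (r = 0.65, adjusted permutation p = 0.0554), and Abcc2 against Abcg2 did (r = -0.67, adjusted p = 0.0486). In males the same pairs had r = -0.24, 0.21, 0.23 and 0.04, and 0 of 15 pairs passed. The BXD27 male, read on 1 forward array, had the lowest male Abcc2 and the highest male Abcb1a. Without it the male r was 0.24 for Abcc2 with Abcb1a and 0.63 for Abcb4 with Abcc2 (adjusted permutation p = 0.599 and 0.0905). The difference between the sexes was not tested.

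The order of deposit moved with these female values. Over 20 female values in 5 runs of arrays, r was 0.77 for Abcc2 with Abcb1a and 0.63 once each run's mean was taken off, 0.78 and 0.44 for Abcb4 with Abcc2, 0.60 and 0.44 for Abcb11 with Abcc2, and -0.71 and -0.33 for Abcb4 with Abcg2. Some strains gave more than 1 of the 20 values, unlike in the correlations above. The largest run held 6 female values, and both genes of a pair were read on the same arrays.

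**Figure D4:**
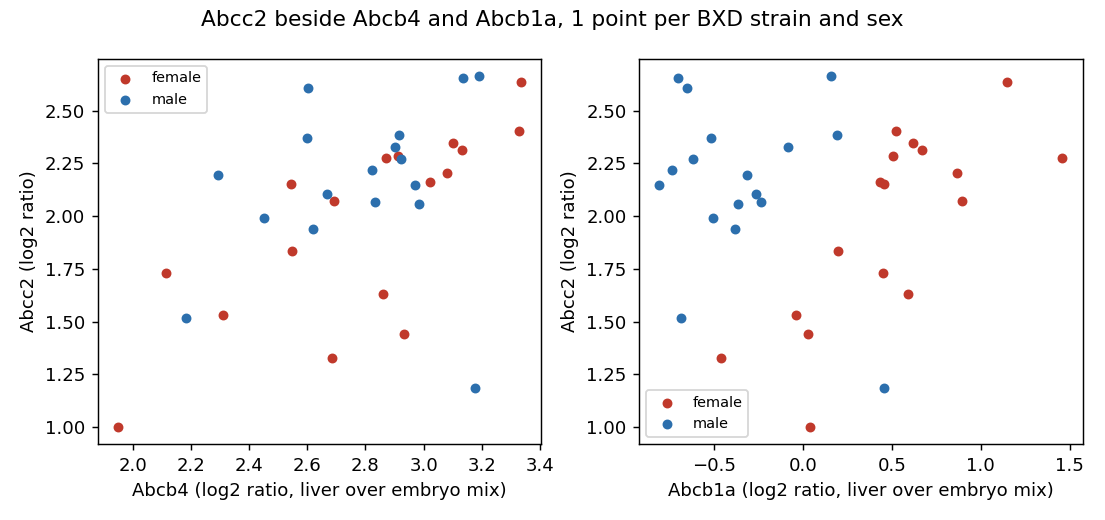
Abcc2 (vertical, log2 ratio of liver over the embryo mix) against Abcb4 and against Abcb1a (horizontal, log2 ratio), 1 point per BXD strain, females and males in different colours. Female points slope upward in both panels (r = 0.75 and 0.76), and among males r is 0.21 and -0.24 with the BXD27 male, the lowest male point in both panels, and 0.63 and 0.24 without it.

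Genes whose values over the 34 strain and sex values were most like each member were looked up among 3438 other named genes, as a description with no test. Symbols of the clone type, such as those with Rik, Gm or LOC, were passed over. A gene ranked higher under such a symbol is therefore not named. All 34 values share the embryo mix, and the sex difference enters each correlation. Abcb1a was most like Cyp2b13 (r = 0.78), Cyp2b9 (0.76) and B4galt4 (0.76), and Abcg2 most like Cyp7b1 (0.75), Elovl3 (0.74) and the Y-linked Eif2s3y (0.73). Abcc2 was most like Atxn2 (0.78), Ctnna1 (0.77) and Slc22a18 (0.77), and Abcb4 like Mtor (0.76), Ppfibp2 (0.74) and Aldh2 (0.73). Abcb11 was most like Tcea2 (0.70), Cpsf3 (0.67) and Cyfip1 (0.67), and Slc10a1 like Cdkn2a (0.70), Arc (0.57) and Eif2ak2 (0.57).

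B6 male liver was also read against the embryo mix, on 1 forward and 1 swapped array. Abcc2 read 2.70 and 2.71, a mean of 2.70 that lay above 17 of 17 BXD males (mean 2.16 ± 0.38 SD). Abcg2 read 1.37 and 1.15, above 16 of 17, and Abcb1a -0.19 and -0.03, above 13. Abcb4 read 2.45 and 3.0009, above 7 of 17, Abcb11 2.50 and 2.98, above 3, and Slc10a1 0.28 and 0.38, above 1. With a single RNA there is no test of these positions.

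Arrays that set B6 directly against D2 have a conflict of labels that bears on the values from them. On the 3 arrays labelled female, the Y-linked gene Eif2s3y read 0.74, 0.69 and 0.56 higher in B6, and the Y-linked Uty 0.57, 0.57 and 1.37. Cyp7b1, which was lower in BXD females of all 17 strains, read 2.67, 2.47 and 2.59 higher in B6 on those arrays. On the arrays labelled male Eif2s3y read 0.01, 0.08 and 0.21, Uty -0.11, -0.06 and 0.33, and Cyp7b1 0.31, -0.09 and -0.07. The X-linked Eif2s3x and Ddx3x, higher in BXD females by 0.85 and 0.75, separated the labels less clearly. Eif2s3x read 0.17, -0.43 and -0.44 on arrays labelled female and 0.30, -0.04 and 0.05 on those labelled male. Ddx3x read -0.02, -0.48 and -0.63 against 0.25, -0.57 and -0.41. The enriched array labelled female read 0.11 for Eif2s3y, -0.13 for Uty and -1.26 for Cyp7b1, and the one labelled male 0.20, -0.23 and -1.22, so the pattern of the 3 arrays was not seen there. The B6 and D2 RNAs of the arrays labelled female thus differ in genes that differ by sex, so strain and sex cannot be told apart on them. Each main result is given with and without them. Fits with a dye term, with swapped arrays alone or with the enriched arrays are given only with them included.

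Abcc2 was higher in B6 on every array. The arrays labelled female read 0.68 (forward), 0.92 and 0.77 (swapped), and those labelled male 0.95, 0.86 and 0.60. The mean of the 2 sex labels was 0.77 (SE 0.08), 1.70-fold, with a limma adjusted p of 0.112. With the arrays labelled male alone it was 0.75 (limma adjusted p = 0.515), and the enriched arrays read 0.65 (labelled female) and 0.76 (labelled male). The value was thus much the same with and without the arrays labelled female, and no call was reached in either. It was called with a dye term (0.80, limma adjusted p = 0.01003; 648 features called) and with swapped arrays alone (0.79, limma adjusted p = 0.0375; 823 called). With the enriched arrays added it was called too (limma adjusted p = 0.00532; 397 called), while the main fit called 13 features. The dye-term fit took each array as its own value, so a forward array and its swapped partner counted separately. Swapped arrays alone leave a dye effect uncancelled, and each of these fits includes the arrays labelled female. The limma adjusted p of Abcc2 ran up to 0.743 among all settings, and with MAD scaling Abcc2 read 1.55.

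Abcg2 and Abcb1a, the members that differ by sex in the BXD strains, read differently under the sex labels. Abcg2 read 1.36, 1.15 and 1.29 on arrays labelled female and 0.50, 0.14 and 0.06 on arrays labelled male. Abcb1a read -0.75, -1.63 and -1.31 on arrays labelled female and 0.36, 0.38 and 0.47 on arrays labelled male. Their B6 over D2 means were 0.73 (SE 0.08, limma adjusted p = 0.112) for Abcg2 and -0.42 (SE 0.07, limma adjusted p = 0.194) for Abcb1a, and without the arrays labelled female they were 0.19 and 0.42, so Abcb1a changed sign. With the dye term and with swapped arrays alone Abcg2 was called (limma adjusted p = 0.00562 and 0.0363, against up to 0.758 among all settings). Those fits called 648 and 823 features and have the limits given for Abcc2. Both include the arrays labelled female, on which Abcg2 read highest, so strain and sex are mixed in those calls. The enriched arrays read 0.39 (labelled female) and -0.08 (labelled male) for Abcg2 and -0.72 and -0.01 for Abcb1a.

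Abcb4 read 0.11, -0.00 and -0.02 on arrays labelled female and 0.26, 0.28 and 0.21 on arrays labelled male, Abcb11 0.16, -0.33 and -0.14 against 0.07, 0.05 and 0.06, and Slc10a1 0.25, -0.27 and 0.76 against 0.48, 0.38 and -0.12. Their means were 0.13, -0.02 and 0.27, with limma adjusted p-values of 0.384 to 0.837. With the arrays labelled male alone the means were 0.24 for Abcb4, 0.06 for Abcb11 and 0.16 for Slc10a1, with limma adjusted p-values of 0.749 to 0.915. In all, 0 of the 6 genes were called between B6 and D2, against 0.0593% of all features, 0.0274% higher and 0.0319% lower in B6 (13 features, and 3058 at an unadjusted p under 0.05). Without the arrays labelled female 0 features were called (limma, 1261 at an unadjusted p under 0.05). None of the 8 other transporters, 11 regulators, 5 bile acid genes or 6 scaffold genes was called in either fit.

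**Figure D5:**
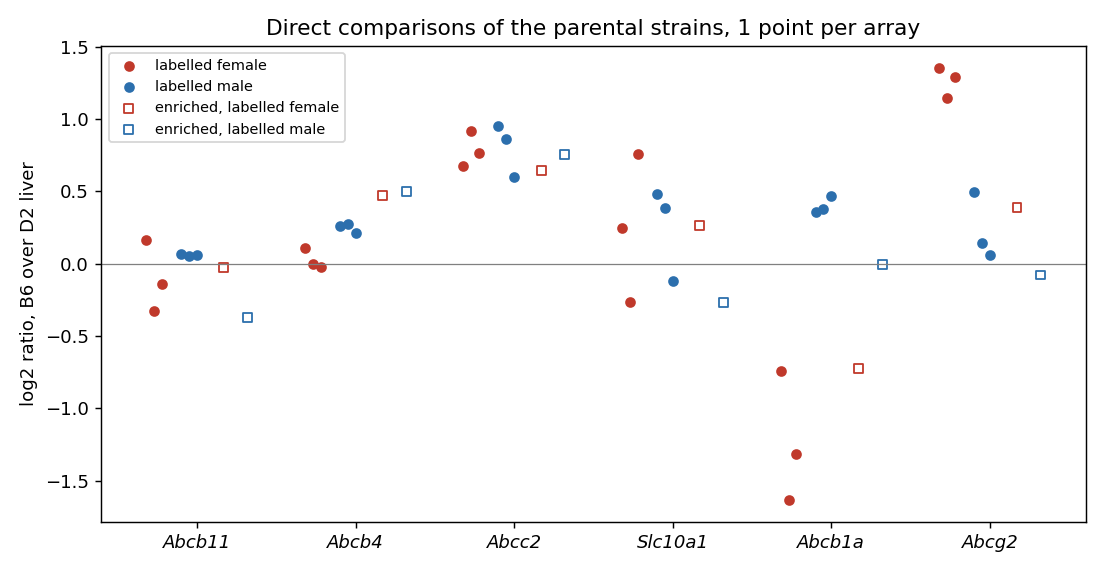
Log2 ratio of B6 over D2 liver (vertical axis) for the 6 transporters, 1 point per array, with arrays labelled female left of arrays labelled male and open squares for enriched RNA. Abcc2 lies above 0 on each of the 8 arrays, from 0.60 to 0.95, and Abcb1a lies below 0 on the arrays labelled female and above 0 on the 3 main arrays labelled male.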

How the data were processed

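Two-colour arrays with 21936 probes were used for liver RNA. The authors deposited 1 log ratio per probe and array. The labels do not state the unit. The values were taken as log10 because 94 of those deposited equal 2 or its negative, which on that scale is a bound of 100-fold. They were multiplied to log2. The scanner and the way values were normalized are not stated in the sources used here. Both channels carry the same dye label, so the direction rests on hepatocyte markers. Forward arrays were multiplied by -1. 1 array of BXD11 females is titled as swapped while its channels place liver as on forward arrays. It was treated as forward, and it correlated at 0.85 with the forward array of that liver and at -0.83 with the swapped array (deposited values).

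Gene names came from the platform annotation (3290 probes with 1 symbol, 4 with several) and a RefSeq gene table (170 more probes by accession). Probes of a gene were averaged for 18 genes, none a member. The promoter windows came from RefSeq (GRCm38.p6). Probe cross-hybridisation among related transporters was not analysed here.

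Arrays were averaged within orientation, then across orientations, per strain and sex. Tests used limma 3.58.1 in R 4.3.3 with Benjamini-Hochberg adjustment over all 21915 features at 0.05: liver over embryo on 13 strain means (also a log2 ratio of at least 1; the mix is 1 RNA whose own spread is outside the test), female over male on 34 values with strain as a block, strain by a moderated F with sex as a term, and B6 over D2 on 4 values, 1 per sex label and replicate number. Correlations used 100000 permutations, two-sided. The fits were tested on simulated data. The members, gene lists and tests were chosen with earlier results of these data known. Named genes are the members, the genes of the sex check on the parental arrays, and the 3 most alike genes per member, clone-type symbols passed over. From the lists at most 4 called genes per comparison were to be named. Exceptions are the 5 regulators called over the mix and Cyp46a1, which was named though not called between the sexes. Alternatives covered centring, scaling, quantile normalization, orientation, strains left out, deposit order, the enriched arrays, a dye term and a replicate block. Some were added after seeing the data: leaving out the arrays of either sex label, swapped parental arrays alone, the runs of arrays, scalings of the parental sex difference and subsets of the female and male correlations. Python 3.11.15, numpy 2.4.6, pandas 2.3.3 and scipy 1.17.1 were used for the rest.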

Additional observations from a re-analysis of the deposited data

Results flagged for a closer look

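Abcb1a was lower in B6 than in D2 on each of the 3 arrays labelled female and higher in B6 on each of the 3 labelled male, which drew attention to it. The difference of the array means, female label minus male label, was -1.63. In the limma fit on 4 values the difference was -1.67 (SE 0.14, adjusted p = 0.305), and 0 of 21915 features passed there (1673 at an unadjusted p under 0.05). The arrays labelled female also read Y-linked Eif2s3y and the male-biased Cyp7b1 higher in B6, so strain and sex cannot be told apart on them. Among 48 groups of values checked for a lone outlying value, 0 had one, where chance gives about 1 in 20.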

How the results depend on the processing

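The log base, the direction of the ratio and the embryo mix, which is 1 RNA, limit every value, and 4 values limit the parental tests. Read as log2, 0 of 6 members were called over the mix, beside 205 of all features in place of 3037, with the size threshold unchanged. Leaving out a strain, the members called were 3 to 4 over the mix, beside 2988 to 3094 of all features. Between sexes they were 2, beside 6603 to 8142 of all features, and between strains 0 to 1 (1 without BXD28). Between B6 and D2 they were 0 with a value left out. Abcb1a and Abcg2 kept their sex calls except in the 4 forward-only strains, where 0 members and 0 of all features were called and the differences were 0.94 for Abcb1a and -0.62 for Abcg2 (limma adjusted p = 0.283 and 0.284). With all strains 1 member was called between strains. Between B6 and D2, a dye term called 2 members, adding the enriched arrays 1 and swapped arrays alone 2, each with the arrays labelled female included. For the difference between sex labels the dye term called 1 member, with 82 features called there. Fits with the dye term counted each array as a separate value. Features called between B6 and D2 numbered 0 to 823 over settings, 2 with MAD scaling, 54 with quantile normalization, 648 with the dye term and 397 with enriched arrays, and 0 to 419 with a value left out. Strain calls over all features numbered 164 with forward arrays, 101 with swapped arrays and 5589 with all strains, and 139 to 278 with a strain left out. MAD scaling gave 1 correlation between sexes and 2 pairs of members past 0.05, and females alone 4. Slc10a1 also lost its call over the mix in 7 of 13 other settings. Abcg2 was called over the mix in males alone (1.02). Signs turned as follows. Over the mix, Abcb1a stood at -0.0207 when centred, -0.38 in males and -0.0208 (without BXD31) to 0.0849 with a strain left out. Between sexes, Abcb11 stood at 0.39 with MAD scaling, -0.0663 to 0.0101 (without BXD28) with a strain left out, 0.18 in forward-only strains and 0.28 with the deposit run as a term. Abcc2 stood at 0.0818, 0.26 and 0.15 with MAD scaling, in forward-only strains and with the run. Slc10a1 stood at -0.22 in forward-only strains. Abcb4 stood at -0.052 with quantile normalization, -0.0572 and -0.0092 with forward and swapped arrays, -0.0012 with replicate 1, -0.0952 in 13 strains, and -0.0377 to 0.073 with a strain left out. Between B6 and D2, Abcb11 stood at 0.0137 with a dye term, and without the arrays labelled female at 0.0609, with Abcb1a at 0.42. For the difference between sex labels, Abcc2 stood at -0.0154 with a dye term, -0.0163 with enriched arrays, -0.36 with MAD scaling and -0.18 with quantile normalization, Slc10a1 at -0.002 and -0.0065 with the dye term and quantile normalization, and Abcb11 at 0.0021 with enriched arrays. The correlation between sexes of Slc10a1 was -0.0798 without 2 strains. Among pairs, MAD scaling gave -0.0374 for Abcb11 and Slc10a1 and 0.0464 for Abcb4 and Abcg2. The 13 strains gave -0.0261 for Abcc2 and Abcg2, -0.25 for Slc10a1 and Abcb1a and 0.0247 for Abcb1a and Abcg2. Females gave -0.31 for Abcb11 and Abcg2 and -0.52 for Abcc2 and Abcg2. Males gave 0.0369 for Abcb4 and Abcg2, -0.24 for Abcc2 and Abcb1a and -0.17 for Slc10a1 and Abcb1a, which was -0.18 without 2 strains and -0.0984 in females without 2 strains. In males without BXD27 and in the 13 strains, Abcc2 and Abcb1a gave 0.237 and 0.1185, and Abcb1a and Abcg2 0.0952 and 0.0932. Replicate numbers only name repeats. With the replicate block, 2 members were called between sexes (Abcb1a 0.88, Abcg2 -0.75), beside 7837 of all features. Between B6 and D2 it called 0 members (Abcc2 0.77, limma adjusted p = 0.1002) and 2 features in place of 13. Deviations of same-numbered parental arrays correlated at 0.32 across features, and replicate 2 has swapped arrays only. Causes of these changes were not tested.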
